A study of Mus musculus with 18 samples.

Results

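Regulatory T cells (Tregs) sorted from infarcted mouse hearts were compared with Tregs of uninjured spleens. The comparison rested on 9 of the 18 libraries of the series, 3 from infarcted heart and 6 from spleen. They were picked by their column names in the table that holds both tissues, and the naming style of those columns, Endo or Tregs, entered each fit as a covariate. Heart replicate 1 and spleen replicates 1 to 3 carried the Endo style, and heart replicates 2 and 3 and spleen replicates 4 to 6 the Tregs style. Heart Tregs were taken on day 7 after myocardial infarction (MI), which was made by tying the left coronary artery, and each heart replicate pooled cells of 3 mice. Spleen Tregs came from uninjured mice, and whether those replicates were pooled is not given in the sources used here. All mice of both groups were males of the strain Foxp3(DTR/GFP), aged 10 weeks, whose GFP reports Foxp3. In both groups the cells were sorted by flow cytometry and their RNA was sequenced in bulk from 1 ng of total RNA. No Tregs of uninjured heart were used here, so the effect of infarction and the effect of residence in heart against spleen cannot be told apart. In such bulk samples, fewer cells that express a gene and less of its RNA per cell cannot be told apart either, and p-values measure the spread between these pools.

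Tregs are CD4 T cells that hold the transcription factor Foxp3 and restrain immune responses. Most of those in spleen recirculate between lymphoid organs in a resting state, while those in tissues tend to carry an effector program with receptors for alarm signals such as IL-33, high checkpoint receptors and growth factors such as amphiregulin. After MI, Tregs gather in the injured heart and are known there for limiting inflammation and for aiding scar formation.

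The sorted cells held the RNA of Tregs in both tissues. Foxp3, the lineage factor, was at 746, 711 and 624 CPM (counts scaled to a common library size by TMM, edgeR's trimmed mean of M values) in heart replicates 1, 2 and 3, against 344, 409 and 444 CPM as the lowest, median and highest of the 6 spleen libraries. All levels are given in that order, without repeating it. Markers of T cells summed to 4243 to 4927 CPM in heart and 3962 to 4828 CPM in spleen, while 5 Treg markers summed to 4914 to 6219 and 2453 to 2816 CPM. Marker sums of other cells differed by cell type. Fibroblast markers (10 genes) summed to 8.95 to 9.92 CPM in heart, against 15.1 CPM in spleen replicate 3 and 0 to 3.97 CPM in the other spleen libraries. Endothelial markers (9 genes) summed to 79.1 to 98.7 CPM in heart and 129.9 to 165.7 CPM in spleen. B cell markers (10 genes) summed to 21.8 to 72.4 CPM in heart and 50.2 to 125.9 CPM in spleen. Cardiomyocyte markers (12 genes) summed to 308 to 922 CPM in heart and 191 to 875 CPM in spleen, nearly all of it Ttn, with Tnni3, Myl7 and Nppb at 0 in all 3 heart libraries. Other cardiomyocyte markers had more reads in heart, with 60 reads of Myh6 in heart and 2 in spleen (pooled ratio 53.6, 95% counting interval 14.2 to 452.5), and 4 further markers at 5 to 24 reads in heart against 0 to 2 in spleen. Neutrophil markers (8 genes) summed to 26.7 to 70.3 CPM in heart and 4.49 to 33.6 CPM in spleen, most of it in heart from Mmp9, with Ly6g alone at 0 in heart and 25 reads of Camp in heart against 3 in spleen (pooled ratio 14.9, interval 4.54 to 76.99). The part of such cells in the results was not tested. Macrophage markers (12 genes) were at 83.5 CPM in heart replicate 1, against 16.7 and 9.52 CPM in heart replicates 2 and 3 and 24 to 44.6 CPM in spleen. Dendritic cell markers (10 genes) were at 654, 107 and 303 CPM in heart replicates 1, 2 and 3 and 176 to 545 CPM in spleen. Total counts ran from 11139361 to 12974890 in heart and from 5970346 to 15756884 in spleen, where the Endo-style libraries held the fewest. Ribosomal RNA took 7.72 to 10.6% of counts in heart and 9.26 to 24.9% in spleen. The small RNA Rn7sk took 4.08% in heart replicate 1 and 0.64 to 0.81% in heart replicates 2 and 3. In spleen it took 1.00 to 1.90% in Endo-style and 3.97 to 4.94% in Tregs-style libraries. Its difference between heart and spleen thus ran in opposite directions in the 2 styles.

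Heart Tregs differed from spleen Tregs in about 1 gene in 5. Of 15025 genes tested, 1772 were higher in heart (11.8%) and 1271 were lower (8.46%), together 20.3%, at a false discovery rate (FDR) of 0.05 by the quasi-likelihood F test of edgeR after Benjamini-Hochberg correction. Log2 fold changes are heart minus spleen and stand with their SE after the levels, and adjusted p-values come from that test. The genes that rose included channels, peptide processing enzymes, chemokine receptors and cytokine receptors that were near 0 in spleen, and the genes that fell included many of resting T cells. All 3 heart libraries lay above all 6 spleen libraries in 13.2% of genes and below them in 10.0%. The 11.8% higher and 8.46% lower are the background for the called genes of each list below. Upper-quartile scaling moved the median of all genes by -0.09 on the log2 scale and gave 1506 higher and 1643 lower genes, so that 47.8% of its calls were higher, against 58.2% with TMM. Without heart replicate 1, 2 or 3 the calls numbered 2292, 2241 and 2894 (991, 847 and 1183 of them lower), and with only the 4 Endo-style libraries, of which 1 is heart, they numbered 1599.

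**Figure D1:**
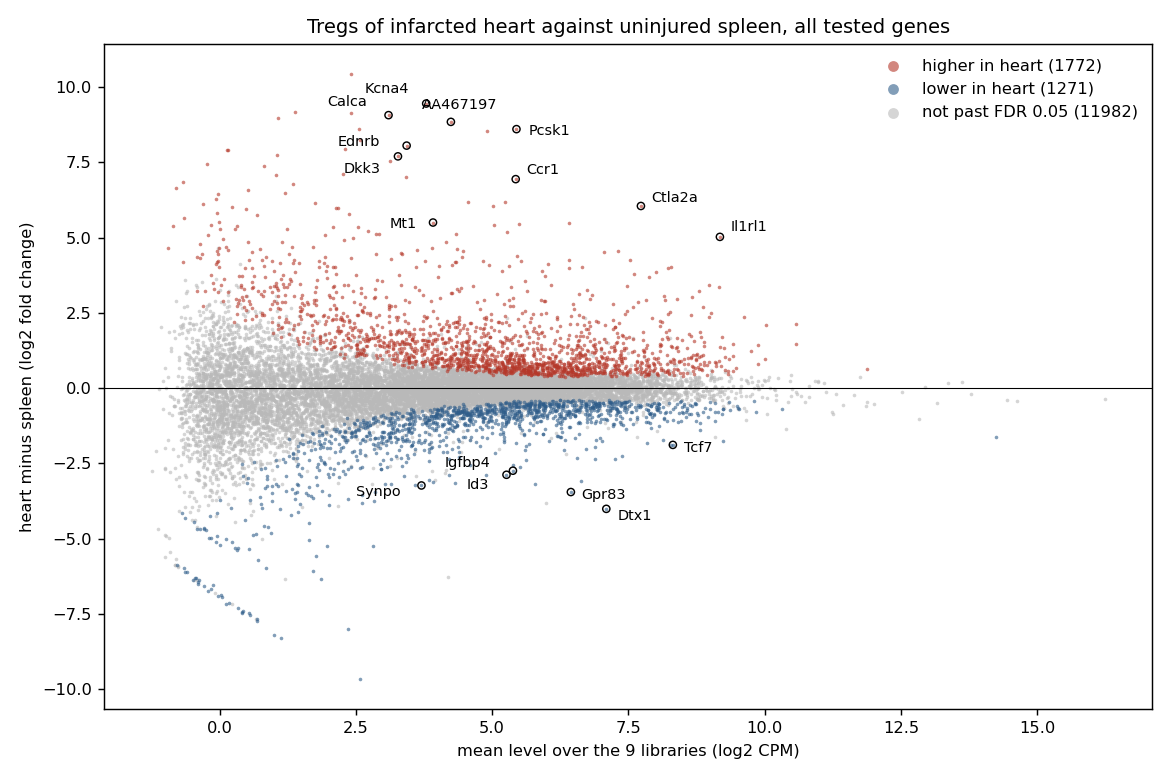
Log2 fold change of heart minus spleen (vertical axis) against the mean level over the 9 libraries in log2 CPM (horizontal axis), 1 point a gene, with 1772 genes higher in heart in red, 1271 lower in blue and the others in grey. Kcna4, Calca, AA467197, Pcsk1 and Ednrb stand at the top and Dtx1 and Gpr83 at the bottom among the well expressed genes.

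Most of the genes highest in heart Tregs relative to spleen were near 0 in spleen. By fitted fold change, among genes with a mean of at least 3 on the log2 CPM scale and no overlap between libraries, the 15 highest were Kcna4, Calca, AA467197, Pcsk1, Ednrb, Dkk3, Col18a1, Cxcl3, Ccr1, Ltb4r1, Frmd5, Npnt, Ctla2a, Mt1 and Cxcr6. Kcna4, a voltage-gated potassium channel, was at 36.9, 61.5 and 25 CPM in heart against 0, 0 and 0.347 CPM in spleen. Pooled over libraries that was a ratio of 888 to 1, with a 95% counting interval of 303.3 to 4311 because spleen held 3 reads in all (adjusted p = 1.54e-07). AA467197, which encodes a small mitochondrial protein, was at 46.6, 82 and 41.1 CPM in heart and 0, 0.134 and 0.497 CPM in spleen, a log2 fold change of 8.84 ± 0.50 (SE; adjusted p = 9.35e-08). Dkk3, a secreted protein of the dickkopf family, stood at 24.1, 38.6 and 22 CPM in heart and 0, 0.0646 and 0.52 CPM in spleen (7.69 ± 0.60). Genes for secreted and matrix proteins were among them. Col18a1, a basement membrane collagen chain, was at 24.1, 28.8 and 22.7 CPM in heart and 0, 0.173 and 0.506 CPM in spleen (7.53 ± 0.62). Npnt, the matrix protein nephronectin, was at 74.7, 108 and 102 CPM in heart and 0.129, 1.39 and 2.67 CPM in spleen (6.06 ± 0.48). Frmd5, a FERM domain protein, was at 109.8, 143 and 81.6 CPM in heart and 0, 1.18 and 3.59 CPM in spleen (6.17 ± 0.73). Cxcl3, a chemokine for neutrophils, was at 25, 32.3 and 36.9 CPM in heart and 0, 0.115 and 0.703 CPM in spleen (7.00 ± 0.57). Ctla2a, an inhibitor of cysteine proteases with a close copy in Ctla2b that the counting could have split, was already present in spleen, with 564, 866 and 452 CPM in heart and 6.19, 8.61 and 18.8 CPM in spleen (6.05 ± 0.34). That no heart library overlapped spleen in the 15 genes was set by the rule. Among those whose levels are given in this paragraph, heart replicate 2 was the highest except for Cxcl3. Log2 fold changes against spleen levels this low depend on single libraries: without heart replicate 1 they were 11.92 for Kcna4, 10.10 for AA467197, 9.08 for Dkk3 and 11.17 for Col18a1, and that of Kcna4 was 10.53 without spleen replicate 2 against 9.45 with all. AA467197 was at 9.47 without spleen replicate 1. Without spleen replicate 6 Frmd5 was at 6.92 and Cxcl3 at 8.09, and without spleen replicates 1 and 2 together, the libraries with the most ribosomal RNA, Kcna4 was at 10.47 and AA467197 at 9.76. With the Tregs-style libraries alone Col18a1 was at 11.49 and the call of Frmd5 was lost (6.17, adjusted p = 0.059).

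The start regions of these genes are shown because the genes rose together. The 4 highest by fold change are printed with Cxcl3, which was added for its motif matches after they were seen. Each window runs from 250 bases before to 50 bases after the RefSeq start of the gene on GRCm38.p6, 5′ to 3′ on the gene's strand, in lower case with matches in capitals. The windows lie at chr2:107290339-107290638 (plus strand) for Kcna4, chr7:114636308-114636607 (minus) for Calca, chr2:122637637-122637936 (plus) for AA467197, chr13:75089607-75089906 (plus) for Pcsk1 and chr5:90785851-90786150 (plus) for Cxcl3. The letters searched on both strands were TGANTCA for AP-1, TGACGTCA for the cyclic AMP response element and GGGNNNTTCC for NF-kB. No run of letters can match both the AP-1 and the cyclic AMP letters.
Kcna4: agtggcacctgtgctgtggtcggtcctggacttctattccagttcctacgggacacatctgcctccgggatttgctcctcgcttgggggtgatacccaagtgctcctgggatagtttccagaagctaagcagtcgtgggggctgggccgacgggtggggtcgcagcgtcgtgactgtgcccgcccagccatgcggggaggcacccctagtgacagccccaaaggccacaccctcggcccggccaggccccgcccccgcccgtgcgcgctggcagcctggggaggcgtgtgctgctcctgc
Calca: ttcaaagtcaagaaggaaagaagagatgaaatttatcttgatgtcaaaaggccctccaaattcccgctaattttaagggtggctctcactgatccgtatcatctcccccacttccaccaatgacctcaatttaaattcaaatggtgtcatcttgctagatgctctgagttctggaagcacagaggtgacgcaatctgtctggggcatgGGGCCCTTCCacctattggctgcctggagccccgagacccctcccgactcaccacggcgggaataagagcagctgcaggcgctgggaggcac
AA467197: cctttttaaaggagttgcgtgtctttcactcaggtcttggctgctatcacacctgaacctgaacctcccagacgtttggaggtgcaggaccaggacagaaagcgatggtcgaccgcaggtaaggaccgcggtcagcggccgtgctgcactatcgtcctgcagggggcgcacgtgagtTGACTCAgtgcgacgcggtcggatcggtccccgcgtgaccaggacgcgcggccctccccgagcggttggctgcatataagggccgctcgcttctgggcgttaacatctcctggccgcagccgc
Pcsk1: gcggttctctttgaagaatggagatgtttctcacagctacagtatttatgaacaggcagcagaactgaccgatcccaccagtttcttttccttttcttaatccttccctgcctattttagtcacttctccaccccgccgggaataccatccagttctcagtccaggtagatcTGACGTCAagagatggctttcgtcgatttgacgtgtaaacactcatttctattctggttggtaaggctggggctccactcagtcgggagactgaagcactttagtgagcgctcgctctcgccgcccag
Cxcl3: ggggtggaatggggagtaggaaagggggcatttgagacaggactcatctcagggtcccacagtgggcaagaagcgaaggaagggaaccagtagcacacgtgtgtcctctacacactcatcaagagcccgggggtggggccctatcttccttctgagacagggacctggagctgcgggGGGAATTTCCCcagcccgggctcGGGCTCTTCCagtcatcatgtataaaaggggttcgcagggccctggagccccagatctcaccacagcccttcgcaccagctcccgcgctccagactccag
The Kcna4 window held none of the 3 motifs. The Calca window held 1 NF-kB match, the AA467197 window 1 AP-1 match, the Pcsk1 window 1 cyclic AMP response element, and the Cxcl3 window 3 NF-kB matches, of which 2 overlap on opposite strands. Of 32851 mouse windows of the same length, 7.81% held the AP-1 letters, 1.79% the cyclic AMP element and 5.56% the NF-kB letters. Among genes tested here that had a window, the AP-1 letters stood in 8.58% of the 1247 that were higher in heart and in 6.13% of the 864 that were lower, against 5.8% of all 9263. For the cyclic AMP element the share was 3.45% of higher genes, 1.97% of lower genes and 3.69% of all. For NF-kB it was 9.14% of higher genes, 9.03% of lower genes and 7.49% of all. Of the 15 highest genes 14 had a window, and 2 held AP-1 letters, 1 the cyclic AMP element and 3 NF-kB letters. Of the 15 lowest 9 had one, and 1 of these held NF-kB letters. A match is a run of letters, not a shown binding site.

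Heart Tregs carried RNA of several peptide and lipid mediator genes that are better known from nerves, endocrine cells and myeloid cells. Of 30 listed genes of neuropeptide, adrenergic and prostanoid signalling 22 were tested, 11 were higher in heart and the others did not pass, with a median log2 fold change of 1.40 against -0.03 for all genes. Calca, which encodes calcitonin and the vasodilator peptide CGRP, was at 51.1, 21.2 and 3.7 CPM in heart against 0, 0 and 0.134 CPM in spleen, where 2 reads were seen in all. That made a pooled ratio of 767.8 to 1, with a counting interval of 211.9 to 6350 (adjusted p = 4.02e-06). Heart replicate 1 held most of the Calca RNA and heart replicate 3 the least. Each heart library exceeded every spleen library, as the rule for the 15 highest genes required. Ramp3, which turns the calcitonin-receptor-like receptor into a receptor for adrenomedullin, followed the same order of heart libraries, with 105, 47.3 and 20.3 CPM in heart and 1, 2.34 and 3.48 CPM in spleen (4.62 ± 0.34, adjusted p = 8.76e-07). Macrophage and dendritic cell marker sums were also highest in heart replicate 1, and their part in these 2 genes was not tested. Leaving out heart replicate 1 moved the log2 fold change of Calca to 7.80, and leaving out spleen replicate 4 moved it to 11.21, against 9.06 with all, and neither ended the call.

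Peptide processing and lipid mediator genes showed the same pattern with steadier values among heart libraries. Pcsk1, the convertase that cleaves prohormones in secretory granules, was at 125, 136 and 133 CPM in heart and 0.067, 0.314 and 0.993 CPM in spleen (8.60 ± 0.34, adjusted p = 2.61e-09). Penk, the enkephalin precursor and a substrate of such convertases, rose less and was well expressed in spleen, with 158, 215 and 161 CPM in heart and 39.6, 54.4 and 64.5 CPM in spleen (1.74 ± 0.18). Ednrb, a receptor for endothelins, was at 25.8, 40.5 and 29.1 CPM in heart and 0, 0 and 0.335 CPM in spleen (8.05 ± 0.56). Receptors for leukotrienes rose as well. Ltb4r1, the high affinity receptor for leukotriene B4, was at 49.4, 62.9 and 92.5 CPM in heart and 0, 1.27 and 3.81 CPM in spleen (6.18 ± 0.86). Cysltr1, a receptor for cysteinyl leukotrienes, was at 14.3, 19.8 and 19 CPM in heart and 0.422, 1.98 and 4.16 CPM in spleen (3.59 ± 0.52). Hpgds, the hematopoietic prostaglandin D synthase, was at 21.4, 29.1 and 10.7 CPM in heart and 1.56, 4.3 and 6.16 CPM in spleen (2.36 ± 0.38). The prostaglandin E2 receptor genes Ptger4 (-0.13) and Ptger2 (-0.41) did not pass, and their heart and spleen libraries overlapped. Leaving out heart replicate 1 gave 9.64 for Pcsk1, 7.47 for Ltb4r1 and 4.31 for Cysltr1. Without spleen replicate 4 the log2 fold change of Ednrb was 9.21, without spleen replicates 1 and 2 together Ltb4r1 was at 6.81, and Cysltr1 was at 2.23 with the Endo-style libraries alone. None of these ended a call.

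**Figure D2:**
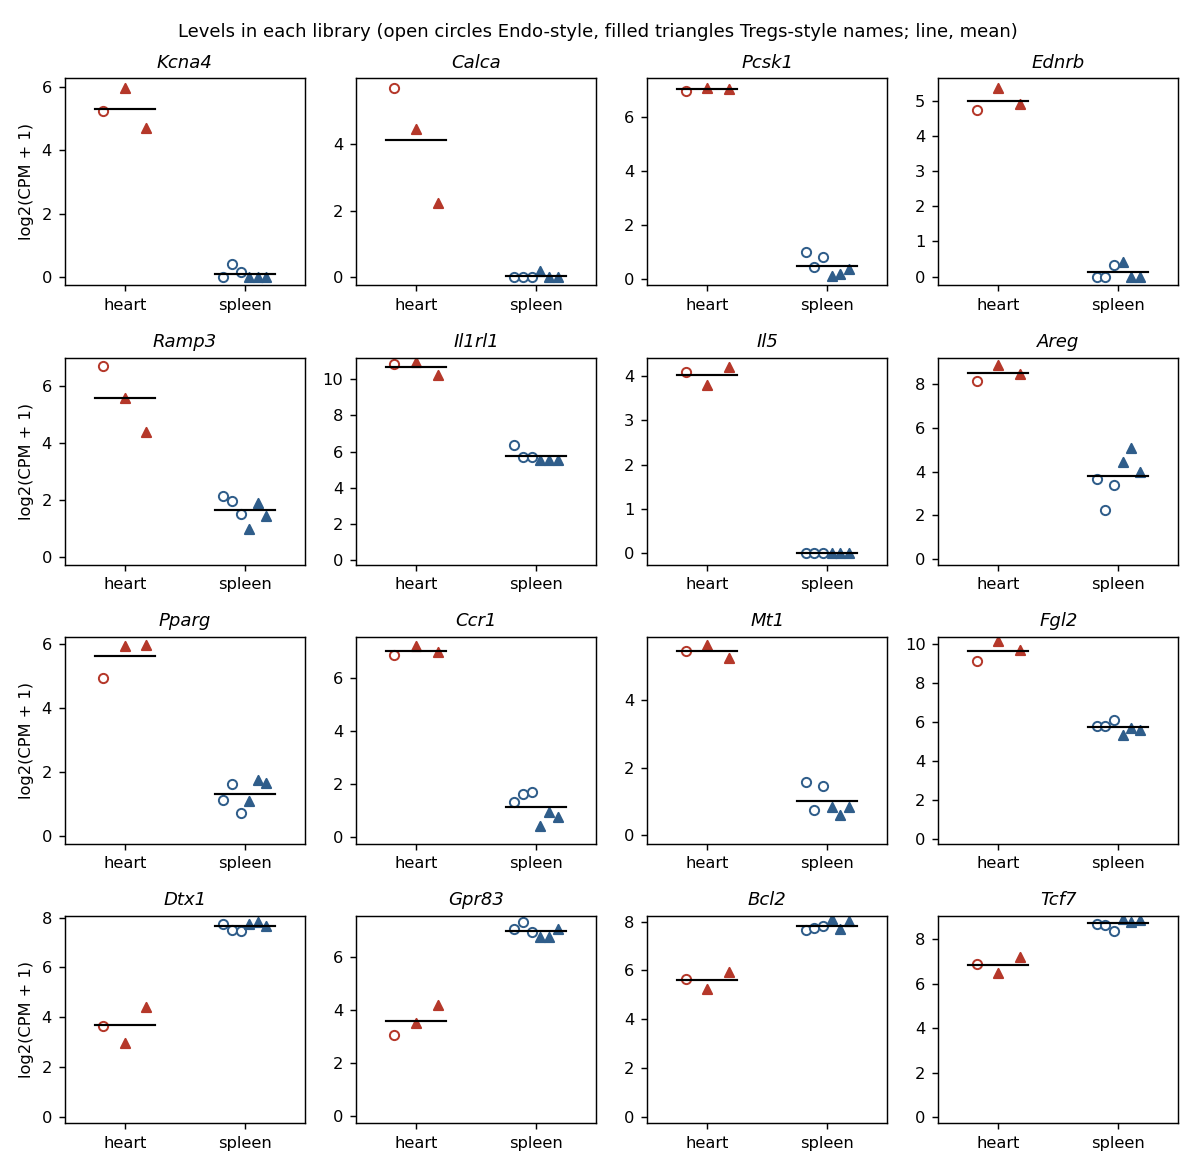
Levels of 16 genes in the 3 heart (red, left) and 6 spleen libraries (blue, right) as log2(CPM + 1), with open circles for Endo-style names, triangles for Tregs-style names and a line at the mean. For all 16 genes the heart libraries lie apart from the spleen libraries, above them in the first 12 panels and below them for Dtx1, Gpr83, Bcl2 and Tcf7.

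Heart Tregs held more RNA for the receptors of the alarm cytokines IL-33 and IL-18, while the shared coreceptor and adaptor did not pass the test. Of 14 genes of this family, all tested, 7 were higher in heart and the others did not pass (median 0.34, all genes -0.03), and 4 were higher without heart replicate 1 or with the Tregs-style libraries alone. Il1rl1, the IL-33 receptor chain ST2, was at 1854, 1951 and 1186 CPM in heart and 45.6, 48.3 and 82.1 CPM in spleen (5.02 ± 0.20, adjusted p = 2.29e-09), so that heart replicate 3 was the lowest of the heart libraries and still far above spleen. Il18rap, a chain of the IL-18 receptor, was at 182, 178 and 91.1 CPM in heart and 13.4, 18.1 and 29.1 CPM in spleen (2.90 ± 0.26). Il18r1, the other chain, was at 239, 217 and 193 CPM in heart and 61.4, 90.8 and 128 CPM in spleen (1.17 ± 0.18). All heart libraries lay above all spleen libraries for both chains. Il1r2, the decoy receptor for IL-1, was at 108, 94.7 and 91.5 CPM in heart and 3.15, 10.7 and 30.0 CPM in spleen (2.74 ± 0.58). Il1r1, the signalling receptor for IL-1, was low in both, at 3.67, 2.83 and 1.73 CPM in heart and 0.166, 0.239 and 0.759 CPM in spleen (2.92 ± 0.72). Il1rap, the coreceptor that IL-33 and IL-1 share (-0.16, adjusted p = 0.625), and Myd88, the adaptor (0.00, adjusted p = 0.995), did not pass and overlapped between groups. The calls of Il1r1 and Il1r2 ended without heart replicate 1 (2.73 and 2.28) and with the Tregs-style libraries alone (2.74 and 2.28). That of Il1r1 also ended with the Endo-style libraries (3.19), and that of Il1r2 without spleen replicates 1 and 2 together (2.61).

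Type 2 and type 17 cytokine transcripts were found in heart Tregs and were at or near 0 in spleen Tregs. Of 17 helper cytokine genes 8 had enough reads to be tested and 5 were higher in heart (3 with the Endo-style libraries alone), with a median of 2.58. Il5, which supports eosinophils, was at 16.1, 12.8 and 17.4 CPM in heart and had no read in any spleen library, which is at least 330.3-fold higher with a floor of 3 reads over the spleen group (adjusted p = 7.28e-06). Il17a was at 2.35, 3.07 and 2.6 CPM in heart with no read in spleen, at least 57.73-fold higher, though its call ended with the Endo-style libraries alone (adjusted p = 0.0552). Il13 was at 4.99, 8.73 and 17.1 CPM in heart and 0, 0.16 and 0.871 CPM in spleen, with a log2 fold change of 5.07 ± 0.73, or 6.08 without spleen replicate 4. Il10, the suppressive cytokine, was at 105, 192 and 81.4 CPM in heart and 2.6, 10.8 and 20.8 CPM in spleen (3.54 ± 0.39, adjusted p = 0.000246). Lif, a cytokine of the IL-6 family, was at 13.7, 15.8 and 18.9 CPM in heart and 2.6, 5.7 and 6.58 CPM in spleen (1.61 ± 0.30) and lost its call with the Endo-style libraries alone (1.52). Ifng (0.69 ± 0.40), Tnf (-0.45 ± 0.20) and Il2 (0.37 ± 0.66) did not pass, with overlapping libraries. Markers of other cells that make type 2 or type 17 cytokines were summed too. Those of mast cells and eosinophils (8 genes) were at 9.44 to 13.3 CPM in heart and 0.0703 to 2.28 CPM in spleen. Most of that was Kit, with Mcpt4, Fcer1a, Ms4a2 and Epx at 0 in heart. Every heart sum lay above every spleen sum, at levels similar to those of Il5 and Il13 and above those of Il17a. Markers of gamma delta T cells (8 genes) summed to 9.84 to 14 CPM in heart and 14.1 to 18.1 CPM in spleen. The part of such cells in these transcripts was not tested.

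Several growth factor genes rose in heart Tregs and others did not pass. Of 24 listed factors 20 were tested, 9 were higher and 2 lower (median 1.31). The number higher was 6 without heart replicate 1, 6 with the Tregs-style libraries alone and 12 with DESeq2. Areg, which encodes the epidermal growth factor receptor ligand amphiregulin, was at 287, 474 and 356 CPM in heart and 3.81, 13.2 and 32.7 CPM in spleen (4.53 ± 0.33, adjusted p = 7.88e-06). Tgfa, another ligand of that receptor, was at 3.58, 5.27 and 1.5 CPM in heart and 0, 0.0867 and 0.268 CPM in spleen (4.85 ± 0.98). Its heart libraries differed among themselves more than those of Areg did. Pdgfb, a growth factor for pericytes and fibroblasts, was at 10.4, 10.8 and 10.0 CPM in heart and 0.497, 0.83 and 1.56 CPM in spleen (3.39 ± 0.41). Metrnl, the secreted protein meteorin-like, was at 11.8, 8.26 and 10.8 CPM in heart and 0.201, 0.876 and 2.07 CPM in spleen (3.35 ± 0.51). The heart libraries of both genes stayed close to one another. Fgf2, the basic fibroblast growth factor, fell to 0.377, 0.157 and 1.26 CPM in heart against 3.48, 6.5 and 11.1 CPM in spleen (-3.69 ± 0.62), but 585 of its exon bases lie opposite exons of Nudt6, and without the strand setting of the counting the 2 genes cannot be told apart. Vegfa was at 4.9, 3.3 and 1.5 CPM in heart and 0, 0.857 and 1.62 CPM in spleen and did not pass (1.87 ± 0.76), except with DESeq2 (1.90). Log2 fold changes were 4.20 for Tgfa without heart replicate 2 and 5.84 without spleen replicate 4, and -4.67 for Fgf2 without heart replicate 3.

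Genes that make and store neutral fat rose in heart Tregs, and most other genes of lipid handling did not pass. Of 31 listed genes 28 were tested, 8 were higher and 1 was lower (median 0.25), and 5 were higher with the Endo-style libraries alone. Pparg, the nuclear receptor that drives fat storage, was at 29.6, 60.1 and 61.3 CPM in heart and 0.633, 1.62 and 2.32 CPM in spleen (4.86 ± 0.29, adjusted p = 7.76e-08). Dgat2, an enzyme of the last step of triglyceride synthesis, was at 123, 121 and 83.9 CPM in heart and 0.141, 3.68 and 6.93 CPM in spleen (5.19 ± 0.58). Dgat1, the other enzyme of that step, was at 656, 491 and 199.7 CPM in heart and 14.7, 19.5 and 22.6 CPM in spleen (4.56 ± 0.28). Both were lowest in heart replicate 3 among the heart libraries, Dgat1 by the wider margin. Plin2, a coat protein of lipid droplets, was at 96.6, 103 and 104 CPM in heart and 3.66, 12 and 20.2 CPM in spleen (2.98 ± 0.44). Hilpda, an inhibitor of droplet lipolysis that hypoxia induces, was at 67.6, 67.7 and 55.2 CPM in heart and 3.66, 6.47 and 9.11 CPM in spleen (3.39 ± 0.23). Pnpla2, the first lipase of the droplet (0.25, adjusted p = 0.296), and Cpt1a, which admits fatty acids to mitochondria (0.26, adjusted p = 0.427), did not pass, although Cpt1a was called without spleen replicates 1 and 2 together (0.51). The gene that fell was Scd2, a fatty acid desaturase (-0.89 ± 0.22), whose call ended without heart replicate 1 (-0.68), without heart replicate 2 (-0.75) and with the Tregs-style libraries alone (-0.68).

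Receptors for inflammatory chemokines were much higher in heart Tregs. Of 19 chemokine and egress receptor genes, all tested, 12 were higher and 2 lower (median 1.58). Ccr1 was at 114, 146 and 125 CPM in heart and 0.335, 1.2 and 2.28 CPM in spleen (6.94 ± 0.33, or 7.68 without heart replicate 1). Cxcr6 was at 177, 326 and 239 CPM in heart and 3.73, 6.23 and 7.46 CPM in spleen (5.47 ± 0.25). Ccr2, the receptor by which monocytes enter inflamed tissue, was at 628, 790.5 and 610.2 CPM in heart and 35.4, 44.9 and 88.6 CPM in spleen (3.84 ± 0.22). Ccr3 (3.23 ± 0.31), Ccr8 (3.11 ± 0.13), Cxcr4 (2.05 ± 0.24) and Ccr4 (1.58 ± 0.20) rose too, each with all heart libraries above all spleen libraries. Cxcr5, which guides cells to B cell follicles, fell to 19.8, 16.8 and 20.5 CPM in heart against 38.4, 69 and 92.7 CPM in spleen (-1.85 ± 0.25), although 110 of its exon bases lie opposite exons of Bcl9l. Macrophages carry several of these receptors. Their marker sums were 83.5, 16.7 and 9.52 CPM in heart replicates 1, 2 and 3 against 24 to 44.6 CPM in spleen, and their part in these results was not tested. The other lower gene, S1pr1, the receptor for exit into lymph, was at 294, 247 and 281 CPM in heart and 284, 402 and 554 CPM in spleen with overlap (-0.59 ± 0.19). Its call ended without any 1 heart replicate (-0.58, -0.54 and -0.63 without replicates 1, 2 and 3), without spleen replicate 1, 2, 4, 5 or 6 (-0.52, -0.56, -0.56, -0.60 and -0.61), without spleen replicates 1 and 2 together (-0.40) and with the Endo-style libraries alone (-0.59). Ccr7, the receptor for entry into lymph nodes, did not pass (-0.16 ± 0.28, adjusted p = 0.739), nor did Cxcr3 (0.10 ± 0.24).

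Adhesion genes changed in both directions in heart Tregs. Of 25 listed genes 24 were tested, 12 were higher and 6 lower (median 0.65), and 3 were lower without heart replicate 1 or with the Endo-style libraries alone. Integrin chains that rose were Itgav (1035, 1177 and 454 CPM in heart and 143, 161 and 212 CPM in spleen, 2.42 ± 0.24), which with a beta chain can release active TGF-beta, Itga3 (47.3, 42.4 and 29.5 CPM in heart and 3.75, 4.89 and 7.34 CPM in spleen, 2.99 ± 0.23), a laminin receptor chain, and Itgae (203, 289 and 283 CPM in heart and 46.9, 52.2 and 84.3 CPM in spleen, 2.19 ± 0.19), the CD103 chain that binds E-cadherin. Cd44, the hyaluronan receptor, was at 856, 1013 and 780.2 CPM in heart and 218, 239 and 265 CPM in spleen (1.85 ± 0.14). Among those that fell were an integrin chain and a tetraspanin. Itga6, the alpha 6 chain, fell to 125, 119 and 132 CPM in heart against 275, 293 and 350.2 CPM in spleen (-1.32 ± 0.14) and the tetraspanin Cd9 to 7.06, 8.81 and 13.4 CPM in heart against 27.9, 31.2 and 54.4 CPM in spleen (-1.80 ± 0.29). Itga4, the alpha 4 chain (0.12 ± 0.18), and Itgb1, the beta 1 chain (0.03 ± 0.17), did not pass.

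Transcription factors of effector and tissue Tregs were higher in heart almost throughout. Of 29 listed factors 28 were tested, 23 were higher and the others did not pass (median 1.48). Id2, an inhibitor of E proteins, was at 549, 809.6 and 524 CPM in heart and 31.6, 46.9 and 59.2 CPM in spleen (3.69 ± 0.16, adjusted p = 3.76e-09). Crem, a repressor of cyclic AMP response elements, was at 505, 562 and 303 CPM in heart and 24.8, 43 and 60.7 CPM in spleen (3.39 ± 0.23). Rora, the orphan nuclear receptor, was at 1551, 1192 and 623 CPM in heart and 97.8, 113 and 154 CPM in spleen (3.22 ± 0.23), and was lowest in heart replicate 3. Epas1, the hypoxia-inducible factor 2 alpha (3.26 ± 0.34), Hlf, a PAR-type leucine zipper factor (3.28 ± 0.37), Bhlhe40 (2.94 ± 0.43), Prdm1, which encodes Blimp-1 (1.49 ± 0.17), Gata3 (1.48 ± 0.14) and Irf4 (1.25 ± 0.16) also rose. Bhlhe40 was at 1.99 without heart replicate 1.

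Genes of NF-kB signalling and of recent stimulation were high in heart Tregs. Of 17 NF-kB subunits and inhibitors, all tested, 15 were higher and the others did not pass (median 1.22). The inhibitors Nfkbia (963, 1059 and 1033 CPM in heart and 224, 380.1 and 530.3 CPM in spleen, 1.38 ± 0.17) and Nfkbid (300.4, 334 and 346 CPM in heart and 62.6, 91.3 and 130.3 CPM in spleen, 1.74 ± 0.18) rose with the subunits Nfkb2 (1.26 ± 0.18) and Rel (1.59 ± 0.26). The subunit Rela did not pass (0.04 ± 0.18). The heart libraries of Rel stood at 981, 648 and 348 CPM, against 171, 209 and 266 CPM in spleen. Its log2 fold change was 0.99 without heart replicate 1, 0.99 with the Tregs-style and 2.43 with the Endo-style libraries alone. Tnip3, an inhibitor of the pathway, was at 8, 10.6 and 12.7 CPM in heart and 1.29, 1.75 and 2.25 CPM in spleen (2.51 ± 0.35). Of 20 immediate early and AP-1 genes 19 were tested, 10 were higher and 1 lower (median 0.91), but 5 were higher without heart replicate 1. Fosl2 was at 1054, 878 and 468 CPM in heart and 13.7, 55.5 and 93.4 CPM in spleen (4.00 ± 0.52). Nr4a3 was at 1240.2, 1106 and 589 CPM in heart and 52.9, 109 and 227 CPM in spleen (3.03 ± 0.39). Nr4a1, a reporter of T cell receptor signals, was at 1169.7, 1087 and 1012 CPM in heart and 82.7, 166 and 289 CPM in spleen (2.69 ± 0.26). Jdp2, an AP-1 repressor outside the list, was at 39.2, 49.6 and 42.1 CPM in heart and 1.04, 2.46 and 3.94 CPM in spleen (4.05 ± 0.31). Fosl2 was at 3.06 and Nr4a3 at 2.22 without heart replicate 1. Immediate early RNA can also rise during the digestion of a tissue, and the effect of cell preparation was not tested.

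Feedback inhibitors of G protein and MAP kinase signalling changed in both directions. Of 20 listed RGS, DUSP and Sprouty genes 18 were tested, 8 were higher and 4 lower (median 0.09). Rgs2 was at 1469.8, 1583 and 1294 CPM in heart and 42, 142 and 238 CPM in spleen (3.35 ± 0.33, or 2.73 without heart replicate 1). Rgs1 was at 1104, 1308 and 1007 CPM in heart and 189, 350.0 and 475 CPM in spleen (1.70 ± 0.19). Both shorten signals of chemokine and other G protein coupled receptors. The MAP kinase phosphatases Dusp4 (578, 523 and 364 CPM in heart and 38.1, 67.5 and 92.6 CPM in spleen, 2.87 ± 0.23), Dusp5 (2.34 ± 0.26), Dusp16 (2.21 ± 0.29) and Dusp10 (2.02 ± 0.25) rose as well. Rgs3 (-0.76 ± 0.14) and the Ras inhibitor Spred1 (-1.18 ± 0.31) fell, though the number of lower genes was 2 without heart replicate 2 or 3, without spleen replicate 2, 4 or 5, without spleen replicates 1 and 2 together and with limma-voom, and 0 with the Endo-style libraries alone (Rgs3 -0.72, Spred1 -0.49). Spry1 did not pass (0.07 ± 0.20).

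Suppressive molecules and checkpoint receptors rose in heart Tregs for the most part. Of 16 suppressive molecules 15 were tested, 10 were higher and the others did not pass (median 1.09), or 5 with the Endo-style libraries alone. Gzmb, the protease granzyme B, was at 264, 233 and 201 CPM in heart and 7.28, 11 and 26.7 CPM in spleen (4.27 ± 0.35), while Prf1, perforin, which lets granzymes into a target cell, did not pass (-0.19 ± 0.37). Markers of CD8 T and NK cells (9 genes), which also hold granzymes, summed to 46.6 to 59.9 CPM in heart and 38.9 to 57.1 CPM in spleen, and their part in the Gzmb level was not tested. Fgl2, a secreted suppressor of antigen-presenting cells, was at 566, 1135 and 842 CPM in heart and 38.9, 53.1 and 68.3 CPM in spleen (4.01 ± 0.22, adjusted p = 4.53e-08). Il1rn, the IL-1 receptor antagonist, was at 19.4, 7.39 and 14.1 CPM in heart and 1.14, 1.93 and 4.64 CPM in spleen (2.54 ± 0.45). Of 18 checkpoint and CD28 family genes, all tested, 10 were higher and 4 lower (median 1.05). Havcr2, which encodes TIM-3, was at 72.2, 57.8 and 49.8 CPM in heart and 1.73, 2.59 and 5.04 CPM in spleen (4.35 ± 0.27). Klrg1, a marker of terminally differentiated cells, was at 407, 616 and 501 CPM in heart and 25.9, 40.1 and 62.1 CPM in spleen (3.80 ± 0.24). Pdcd1, PD-1, was at 210.4, 237 and 223 CPM in heart and 26.7, 42.9 and 64.4 CPM in spleen (2.37 ± 0.24). Ctla4 (2.37 ± 0.16) and Icos (2.37 ± 0.18) rose by the same log2 fold change as Pdcd1. The lower genes were Cd160 (-2.85 ± 0.57), Cd200 (-1.54 ± 0.19), Cd96 (-1.18 ± 0.17) and Btla (-0.82 ± 0.15), and the call of Btla ended with the Endo-style libraries alone (-0.52).

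TGF-beta and nucleotide signalling genes changed in both directions. Of 21 TGF-beta pathway genes 19 were tested, 9 were higher and 3 lower (median 0.27), with 1 lower without heart replicate 1 or with the Tregs-style libraries alone and 5 lower with upper-quartile scaling. Furin, the protease that cuts the TGF-beta precursor, was at 298, 230.0 and 154 CPM in heart and 39, 59.1 and 66.4 CPM in spleen (2.05 ± 0.20). Pmepa1 (1.88 ± 0.18), Skil (1.74 ± 0.17) and Smad7 (1.39 ± 0.21), which are induced by TGF-beta and dampen its signal, rose too, and Skil was at 846, 929 and 539 CPM in heart and 197, 220.1 and 272 CPM in spleen. Among the receptors Tgfbr3, betaglycan, fell to 4.61, 0.236 and 2.75 CPM in heart against 14.8, 19.6 and 27.6 CPM in spleen (-3.04 ± 0.54, or -3.63 without heart replicate 1), and Tgfbr2 did not pass (-0.22 ± 0.13). Of 15 genes of extracellular nucleotides and adenosine, all tested, 5 were higher and 3 lower (median 0.47), and 3 were higher without heart replicate 2 or without spleen replicate 1, 2, 3 or 4, and 2 with the Endo-style libraries alone. Adora2a, an adenosine receptor that raises cyclic AMP, was at 113, 71.7 and 84.4 CPM in heart and 28.5, 35.3 and 50.1 CPM in spleen (1.29 ± 0.19). P2rx7, the ATP-gated channel, fell to 44.1, 40.5 and 70.3 CPM in heart against 148, 169 and 199 CPM in spleen (-1.76 ± 0.19), and Art2b, the enzyme that can gate it by ADP-ribosylation, to 7.35, 8.1 and 14.8 CPM in heart against 41.7, 56.9 and 80.7 CPM in spleen (-2.56 ± 0.29). The ectoenzyme Nt5e, CD73, did not pass (0.47 ± 0.18, adjusted p = 0.0866), but was called without a filter (0.48) and without heart replicate 3 (0.64).

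Metal-binding, hypoxia and membrane repair genes were higher in heart Tregs. Mt1, a metallothionein that binds zinc, was at 42.9, 48.6 and 37.5 CPM in heart and 0.517, 0.789 and 1.99 CPM in spleen (5.50 ± 0.31). Mt2, its neighbour and close relative, was at 17.4, 11.2 and 11.7 CPM in heart and 0, 0 and 0.759 CPM in spleen (7.11 ± 0.75). In the redox and iron list of 20 genes, all tested, 11 were higher and the others did not pass (median 0.56, 6 with the Endo-style libraries alone), among them the sulfiredoxin Srxn1 (2.72 ± 0.31) and the transferrin receptor Tfrc (1.38 ± 0.19). Of 24 genes of glycolysis and hypoxia 23 were tested, 13 were higher and 1 lower (median 0.81, 7 higher with the Endo-style libraries alone). Egln3, a hypoxia-induced prolyl hydroxylase, was at 110.5, 104 and 111 CPM in heart and 4.81, 6.48 and 8.37 CPM in spleen (4.04 ± 0.18, adjusted p = 4.47e-09). Slc16a3, the lactate exporter MCT4, was at 50.1, 48.1 and 39.3 CPM in heart and 6.03, 9.4 and 11.5 CPM in spleen (2.35 ± 0.23). Pdk1, a kinase that holds back pyruvate oxidation and is itself hypoxia-induced, fell to 48.1, 49.8 and 60.3 CPM in heart against 88.3, 115 and 151 CPM in spleen (-1.16 ± 0.19). Of 14 annexin and S100 genes 13 were tested, 11 were higher and the others did not pass (median 1.09, 4 with the Endo-style libraries alone). Anxa1, a mediator of the resolution of inflammation, was at 33.1, 42.8 and 42.6 CPM in heart and 0.281, 2.45 and 5.46 CPM in spleen (4.66 ± 0.53). S100a6 was at 324, 542 and 478 CPM in heart and 47.1, 69.5 and 100.2 CPM in spleen (2.69 ± 0.25). Mt2 was at 10.01 without heart replicate 1 and 8.78 without spleen replicate 3. Anxa1 was at 5.64 without heart replicate 1 and 2.90 with the Endo-style libraries alone, and the call of Pdk1 ended with the Endo-style libraries alone (-1.39).

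Genes of cell division were higher in heart Tregs, and highest in heart replicate 3. Among the 3 heart libraries, replicate 3 was the highest for 22 of 22 mitosis genes and for 22 of 22 DNA replication genes. Of 22 DNA replication genes, all tested, 14 were higher and the others did not pass (median 0.92), and of 22 mitosis genes 11 were higher and the others did not pass (median 1.54). Bub1, a spindle checkpoint kinase, was at 14.1, 13.4 and 26.5 CPM in heart and 1.82, 3.42 and 6.4 CPM in spleen (2.19 ± 0.36). Cdca8, a subunit of the chromosomal passenger complex, was at 21.1, 19.1 and 46.9 CPM in heart and 4.51, 9.14 and 12.7 CPM in spleen (1.64 ± 0.29). Uhrf1, which maintains DNA methylation at replication, was at 38.1, 26 and 57.6 CPM in heart and 9.36, 17.1 and 19.8 CPM in spleen (1.35 ± 0.26). In all 3 genes heart replicate 3 was the highest of the 9 libraries. Mki67, the common marker of dividing cells, was at 467, 426 and 814 CPM in heart and 23.8, 201 and 359.9 CPM in spleen and did not pass (1.68 ± 0.76, adjusted p = 0.181), although no library overlapped. It was called with limma-voom (1.81), without a filter (1.68) and without spleen replicates 1 and 2 together (1.15). The count of higher mitosis genes was 6 without heart replicate 1, 18 without heart replicate 2, 6 without heart replicate 3, 4 with the Endo-style libraries alone and 20 without a filter. That of DNA replication genes was 8 without heart replicate 1 and with the Tregs-style libraries alone, and 4 with the Endo-style libraries alone.

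Genes of naive and lymphoid-resident T cells fell in heart Tregs. Of 23 such genes, all tested, 20 were lower and 1 was higher (median -1.88), where 8.46% of all genes were lower. The transcription factors Tcf7 (119, 87.6 and 146 CPM in heart and 337, 430.5 and 488 CPM in spleen, -1.88 ± 0.18), Bach2 (44.4, 30.8 and 30.9 CPM in heart and 125, 143 and 164 CPM in spleen, -2.01 ± 0.17) and Lef1 (-1.25 ± 0.15), which maintain naive and memory T cells, fell together. Id3, an inhibitor of E proteins, fell to 9.89, 4.64 and 6.22 CPM in heart against 39.7, 44.7 and 93.3 CPM in spleen (-2.87 ± 0.23), while its relative Id2 rose. Bcl2, the survival factor, fell to 48.6, 37.1 and 60.8 CPM in heart against 201, 219.7 and 272 CPM in spleen (-2.26 ± 0.19). Treml2, a receptor of the TREM family, fell to 7.91, 9.36 and 9.92 CPM in heart against 60.2, 76.2 and 109.7 CPM in spleen (-3.18 ± 0.21), and Nsg2 to 12.9, 13.5 and 24.6 CPM in heart against 117, 141 and 171 CPM in spleen (-3.08 ± 0.24). The gene that rose was Il7r, the IL-7 receptor, at 676, 785 and 499 CPM in heart and 186, 233 and 351 CPM in spleen (1.35 ± 0.20).

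The 15 genes that fell most, by the same rule as for the highest, were Dtx1, Gpr83, Synpo, Treml2, Gsta4, Art2a-ps, Arhgap20, Gucy1a3, Nsg2, Tgfbr3, Gata1, Atp1b1, Id3, Sh3bgrl2 and Igfbp4. Dtx1, a Deltex ubiquitin ligase of the Notch pathway, fell to 11.6, 6.84 and 20.2 CPM in heart against 173, 208 and 226 CPM in spleen (-4.01 ± 0.29, adjusted p = 8.76e-07). Gpr83, a G protein coupled receptor that marks resting Tregs, fell to 7.35, 10.5 and 17.2 CPM in heart against 106, 127 and 159.7 CPM in spleen (-3.45 ± 0.27). Synpo, an actin-binding protein, fell to 1.7, 1.81 and 2.6 CPM in heart against 15.2, 17.1 and 25.6 CPM in spleen (-3.23 ± 0.30). Heart replicate 3 was the highest heart library for all 3 genes and stayed far below spleen. Gata1, the erythroid factor, was at 1.51, 1.81 and 2.2 CPM in heart and 11.6, 12.9 and 21.7 CPM in spleen (-2.90 ± 0.32). Erythroid markers (6 genes) summed to 0 to 4.41 CPM in heart and 2.91 to 31.8 CPM in spleen, and their part in the fall of Gata1 was not tested. Arhgap20, a GTPase activator (-3.15 ± 0.35), Gsta4, a glutathione transferase (-3.17 ± 0.47), Gucy1a3, a subunit of soluble guanylate cyclase (-3.11 ± 0.38), Igfbp4, an IGF-binding protein (-2.74 ± 0.42), and Sh3bgrl2 (-2.87 ± 0.52) fell as well. Atp1b1, a sodium pump subunit whose exons share 383 bases with those of Nme7 on the other strand, was at 5.46, 5.35 and 6.77 CPM in heart and 31.1, 40.3 and 54 CPM in spleen (-2.88 ± 0.21). Art2a-ps, a pseudogene close in sequence to Art2b, was at -3.17 ± 0.73 and lost its call without heart replicate 2 (-2.85), without heart replicate 3 (-2.85), with limma-voom (-3.14) and with the Endo-style libraries alone (-1.88), and was at -4.07 without heart replicate 1. Gucy1a3 was at -3.81 and Sh3bgrl2 at -2.13 without heart replicate 1. Without heart replicate 2 Gsta4 was at -3.77 and Sh3bgrl2 at -3.49. Igfbp4 was at -3.44 without heart replicate 3, and Sh3bgrl2 was at -5.11 with the Endo-style libraries alone.

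Most interferon response genes did not pass, and more of them were lower than higher in heart Tregs. Of all genes 8.46% were lower and 11.8% higher. Of 24 listed genes, all tested, 2 were higher and 7 lower (median -0.05), with 4 lower with the Endo-style or with the Tregs-style libraries alone. Iigp1, an immunity-related GTPase, fell to 11.3, 21.7 and 21.7 CPM in heart against 47.5, 61.2 and 97.3 CPM in spleen (-1.91 ± 0.29), and Usp18, which removes ISG15, to 3.01, 9.44 and 13.1 CPM in heart against 19.9, 26.7 and 35.2 CPM in spleen (-1.76 ± 0.39). Usp18 was at -1.10 without heart replicate 1, -1.11 with the Tregs-style and -3.33 with the Endo-style libraries alone. Irf9, a factor of the interferon-activated complex, fell to 55.2, 56.8 and 52.7 CPM in heart against 102, 118 and 139 CPM in spleen (-1.11 ± 0.15), though 123 of its exon bases are shared with Rnf31 on the same strand. Gbp3, a guanylate-binding protein, rose (0.89 ± 0.16) and lost the call with the Endo-style libraries alone (0.84), and Isg15 did not pass (0.64 ± 0.36).

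**Figure D3:**
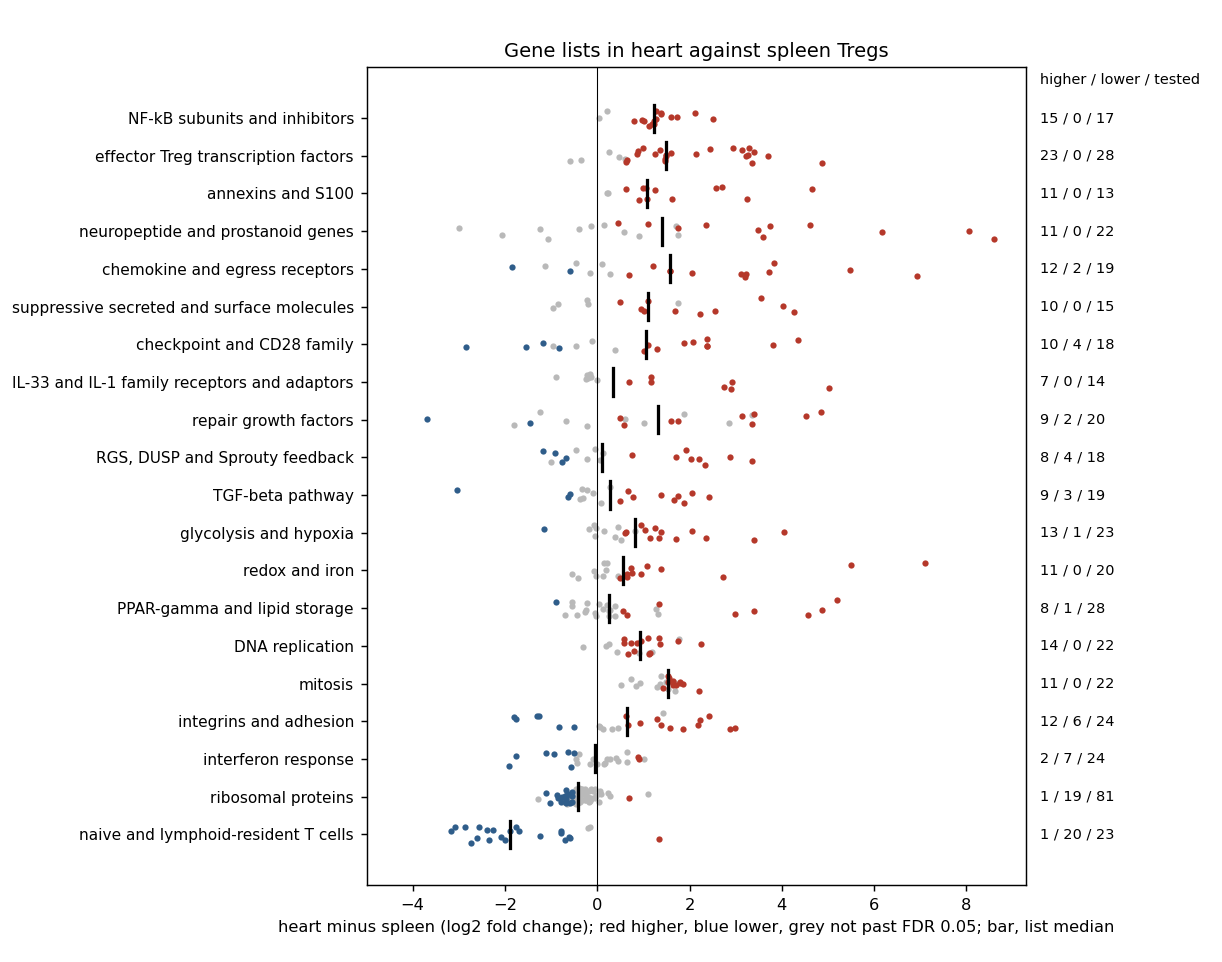
Log2 fold changes of heart minus spleen (horizontal axis) for the tested genes of 20 lists (rows), red where higher in heart, blue where lower and grey where FDR 0.05 was not reached, with a bar at each list's median and counts of higher, lower and tested genes at the right. The naive and lymphoid-resident list lies left of 0, with 20 of 23 genes lower, and the NF-kB list right of it, with 15 of 17 higher.

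Other groups are given by their counts, to be read beside the 11.8% of all genes that were higher and the 8.46% that were lower. In any list described here a count of at most 2 genes moved by up to 2 genes under single alternatives, which are not given one by one. Among 19 TNF superfamily genes 7 were higher in heart and 2 lower (median 0.21), with 4 higher when protein-coding genes alone were tested. Tnfrsf9, the costimulatory receptor 4-1BB, was at 647, 851 and 581 CPM in heart and 85.8, 128 and 131 CPM in spleen (2.53 ± 0.17), while Lta, lymphotoxin alpha, fell to 5.84, 4.01 and 4.96 CPM in heart against 14.5, 20.6 and 22 CPM in spleen (-1.98 ± 0.24). In the Notch list 13 of 15 genes were tested, 3 were higher and 3 lower (median -0.25), with 1 lower with the Endo-style libraries alone. The ligand Jag1 was at 12, 17.9 and 14.2 CPM in heart and 1.9, 2.32 and 4.46 CPM in spleen (2.42 ± 0.31), opposite in direction to Dtx1. In the BCL2 family 5 of 16 genes were higher and 3 lower (median 0.27, and 1 lower with the Endo-style libraries alone), with Pmaip1, the death factor Noxa, at 108, 137 and 119.6 CPM in heart and 10.6, 15.8 and 40.6 CPM in spleen (2.45 ± 0.28). Lamin A, encoded by Lmna, was at 209, 184 and 141 CPM in heart and 4.64, 10.9 and 14.6 CPM in spleen (4.11 ± 0.25), in a nuclear envelope list of 12 with 6 higher and 1 lower (median 0.54). Of 25 cholesterol and fatty acid synthesis genes 3 were higher and 2 lower (median 0.01), shares near those of all genes. Cyp51, a sterol demethylase, was among the higher (1.07 ± 0.13). Of 20 genes of T cell receptor signalling 4 were higher and 2 lower (median 0.02, and 2 higher without heart replicate 2 or with the Endo-style libraries alone), shares not far from those of all genes. Of 12 heat shock genes 0 passed in the main edgeR fit, with 3 at an unadjusted p under 0.05. DESeq2 called 1 and limma-voom 0. In edgeR 2 were higher and 2 lower without a filter. There 1 was higher without the naming style term, without heart replicate 2 and without spleen replicate 4 or 5, and 1 was lower without spleen replicate 6. Ribosomal protein genes were lower in 19 of 81 (median -0.42), but in 5 without heart replicate 1, 8 without heart replicate 2, 29 without spleen replicate 3, 10 with the Tregs-style and 0 with the Endo-style libraries alone, 29 without a filter and 31 with DESeq2.

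Tregs of the infarcted heart also differed from Tregs of the other injuries, though in far fewer genes. Those were Tregs of injured bone (a calvarial defect), muscle (volumetric loss of quadriceps) and skin (full-thickness punch wounds), 3 libraries each pooled from 3 mice of the same strain, sex, age and day after injury. All 18 libraries entered 1 fit, and heart was set against the mean of the 3 tissues. Of 15926 genes tested, 228 were higher in heart (1.43%) and 72 lower (0.452%). Without heart replicate 1, 2 or 3 the calls numbered 205, 133 and 367 in place of 300, and DESeq2 made 641. Bone and muscle libraries carried the Tregs naming style and skin the Endo style, so the style term rests on heart and spleen. Bone levels are given for replicate 1 first, and the other two bone columns cannot be tied to a replicate number.

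The genes that set heart apart from the other injuries were partly those that set it apart from spleen. By the rule on fold change with no overlap of libraries, the 8 highest were Ccr9, Kcna4, AA467197, Ctsw, Dhrs3, Rgs16, Lztfl1 and Jdp2. Ccr9, the receptor for the gut and thymus chemokine CCL25, was at 32.5, 113 and 76.6 CPM in heart, against 14, 19.8 and 18.6 CPM in bone, 0.926, 18 and 7.61 CPM in muscle and 1.2, 2.6 and 1.66 CPM in skin, a log2 fold change of 3.36 ± 0.46 (adjusted p = 0.00176). Spleen Tregs were at 12.6, 18.7 and 36 CPM, so every skin library lay below every spleen library, while Ccr9 rose in heart against spleen (1.58 ± 0.25, a call that ended with the Endo-style libraries alone, 1.08). Kcna4 was at 36.9, 61.5 and 25 CPM in heart, 9.23, 8.53 and 6.02 CPM in bone, 1.6, 7.92 and 2.4 CPM in muscle and 11.4, 6.32 and 8.8 CPM in skin (2.66 ± 0.37). AA467197 was at 46.6, 82 and 41.1 CPM in heart, 14.1, 7.18 and 13 CPM in bone, 8.17, 24.2 and 13.8 CPM in muscle and 7.02, 10.2 and 8.04 CPM in skin (2.31 ± 0.30). Both were present after every injury. That every heart library lay above every library of the other injuries was set by the rule. Lztfl1, a ciliary trafficking protein whose gene lies inside the span of Ccr9 on the other strand, was at 82.7, 108 and 107 CPM in heart, 31.2, 34.8 and 26 CPM in bone, 26.9, 41.6 and 31 CPM in muscle and 11.5, 19.9 and 18.2 CPM in skin (1.94 ± 0.17). Rgs16 (1.97 ± 0.22), the retinol dehydrogenase Dhrs3 (1.99 ± 0.21), Jdp2 (1.93 ± 0.24) and the cathepsin Ctsw (2.05 ± 0.26), whose exons share 9 bases with Fibp, completed the 8. Without heart replicate 1 Kcna4 was at 4.07 and AA467197 at 3.19, and without heart replicate 2 Kcna4 was at 2.06.

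Some of the genes that rose against spleen were also higher in heart than in the other injuries, and others did not pass. Il1rl1 was at 1854, 1951 and 1186 CPM in heart, 736, 606 and 620.1 CPM in bone, 720.1, 1049.9 and 798 CPM in muscle and 1058, 1161 and 1086 CPM in skin (0.96 ± 0.15, adjusted p = 0.00048). Il5 was at 16.1, 12.8 and 17.4 CPM in heart, 0, 0.159 and 0 CPM in bone, 3.12, 1.96 and 3.31 CPM in muscle and 2.22, 1.24 and 0.383 CPM in skin, a difference whose call ended without heart replicate 1 (log2 fold change 4.56, adjusted p = 1, against 6.26e-05 with all). Dkk3 was at 24.1, 38.6 and 22 CPM in heart, 3.2, 3.79 and 1.17 CPM in bone, 3.28, 4.38 and 10.2 CPM in muscle and 2.4, 2.71 and 1.02 CPM in skin (3.16 ± 0.42, or 4.07 without heart replicate 1). Hpgds (2.08 ± 0.35), Pparg (1.61 ± 0.24), Dusp10 (1.28 ± 0.19), Rgs1 (1.07 ± 0.15) and Skil (0.92 ± 0.13) were also higher in heart than in the other injuries. Pcsk1 at 108, 99.6 and 54.3 CPM in bone, 53.7, 159 and 68.4 CPM in muscle and 128, 119 and 98.9 CPM in skin did not pass (0.44 ± 0.30, adjusted p = 0.572), and neither did Areg (0.16 ± 0.32, adjusted p = 0.884). Calca was higher in heart than in the 3 tissues (3.33 ± 0.53), but the call ended without heart replicate 1 (1.82) and without heart replicate 2 (2.44).

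Heart Tregs held more RNA of resting genes than the mean of the other injuries. In the naive and lymphoid-resident list 8 of 23 genes were higher in heart than in the mean of the 3 tissues, as were 1.43% of all genes. The list median was 0.48, against 0.01 for all genes, although 20 of the 23 had fallen against spleen. Tcf7 was at 119, 87.6 and 146 CPM in heart, 144, 198 and 198 CPM in bone, 44.3, 33.9 and 57 CPM in muscle and 15.4, 17.4 and 14.4 CPM in skin (1.23 ± 0.15, adjusted p = 3.95e-05). Bcl2 was at 48.6, 37.1 and 60.8 CPM in heart, 73.2, 83.5 and 102 CPM in bone, 18.4, 12.7 and 16.2 CPM in muscle and 2.95, 6.55 and 6.64 CPM in skin (1.34 ± 0.17). For both genes muscle and skin lay below every heart library, and bone lay at or above the heart libraries with an overlap of 1 library for Tcf7, a difference of single tissues that was not tested. Igfbp4 (2.71 ± 0.42, or 1.94 without heart replicate 3), St8sia1, a ganglioside synthase (1.59 ± 0.27), Actn1 (0.85 ± 0.14) and Bach2 (1.25 ± 0.22, a call that ended without heart replicate 1 at 1.04) were higher too. Itga4 was at 988, 1041 and 1031 CPM in heart, 922, 1014 and 1107 CPM in bone, 650.4, 853 and 869 CPM in muscle and 104, 119 and 136 CPM in skin (1.16 ± 0.14). Skin lay far below the other tissues. Marker medians against the 3 tissues were 2.45 for B cells (2 of 10 tested genes higher) and 1.25 for macrophages (1 of 11). For erythroid cells the median was 3.01 (1 of 4). With no call they were 4.33 for neutrophils, 2.43 for platelets, 1.45 for cardiomyocytes and 0.33 for gamma delta T cells. Fibroblast, endothelial, CD8 T and NK, dendritic and mast cell medians were below 0 (-1.50 to -0.36), also with no call. The part of such cells was not tested.

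The 8 genes that were lowest in heart against the other injuries were Emp1, Plcd1, Lmna, Nhsl2, Fam129b, Anxa2, Dscam and Igsf9b. Anxa2, an annexin of membrane and plasmin control, was at 59.5, 58.5 and 65.5 CPM in heart, 129, 117 and 92.4 CPM in bone, 185, 140.4 and 157 CPM in muscle and 251, 168 and 200.2 CPM in skin (-1.35 ± 0.16, adjusted p = 3.66e-05). Lmna was at 209, 184 and 141 CPM in heart, 476, 420.4 and 256 CPM in bone, 377, 512 and 557 CPM in muscle and 617, 437 and 603 CPM in skin (-1.40 ± 0.25). Both genes were higher in heart than in spleen, so that heart stood between spleen and the other injuries, although the call of Anxa2 against spleen (1.06 ± 0.17) ended with the Endo-style libraries alone (1.06, adjusted p = 0.0572). Fam129b (-1.35 ± 0.23) and the adhesion protein Igsf9b (-1.17 ± 0.22) were lower in heart with every heart library left out in turn. The calls of Lmna (-1.45), Plcd1 (-1.32) and Nhsl2 (-1.02) ended without heart replicate 1, those of Nhsl2 (-1.51) and Dscam (-1.07) without heart replicate 2 and that of Nhsl2 also without heart replicate 3 (-1.56). With all libraries these stood at -1.40 ± 0.25 for Lmna, -1.45 ± 0.28 for Plcd1, -1.40 ± 0.34 for Nhsl2 and -1.18 ± 0.24 for Dscam. The calls of Nhsl2 (-1.38) and Emp1 (-1.87 ± 0.34, or -1.84) ended with limma-voom, and that of Plcd1 without the naming style term (-1.37).

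**Figure D4:**
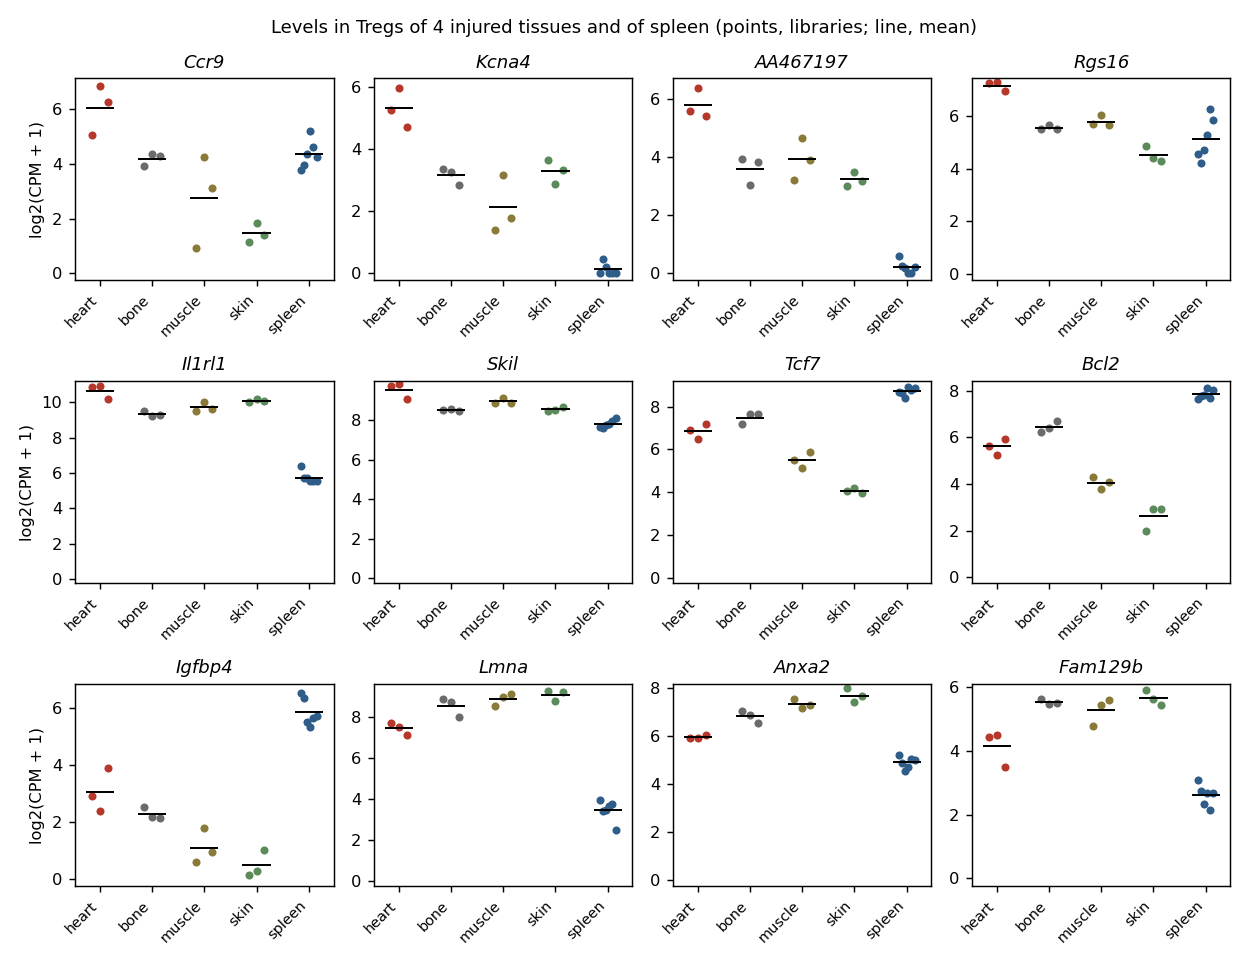
Levels of 12 genes as log2(CPM + 1) in Tregs of heart, bone, muscle, skin and spleen, 1 point a library and a line at each mean. Heart is the highest group for Ccr9, Kcna4, AA467197 and Rgs16, lies between spleen and the other injuries for Lmna, Anxa2 and Fam129b, and keeps Tcf7 and Bcl2 above muscle and skin but below spleen.

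The differences of the named genes from spleen are also given within each naming style. Of 155 genes named here with a call against spleen, 155 had a fitted value in the Endo-style libraries alone and in the Tregs-style libraries alone, and 155 of these had the same sign in both. These genes were chosen by their calls over the same libraries, many of them with no overlap, so a shared sign was largely fixed by the choice and is no independent support. The sizes differed for single genes. The log2 fold change of Col18a1 was 5.69 in the Endo-style and 11.49 in the Tregs-style libraries, that of Mt2 was 5.60 in the Endo-style and 10.33 in the Tregs-style libraries, and that of Usp18 was -3.33 in the Endo-style and -1.11 in the Tregs-style libraries. The Endo-style comparison holds 1 heart library, so its calls assume that this library varies as the spleen libraries do.

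**Figure D5:**
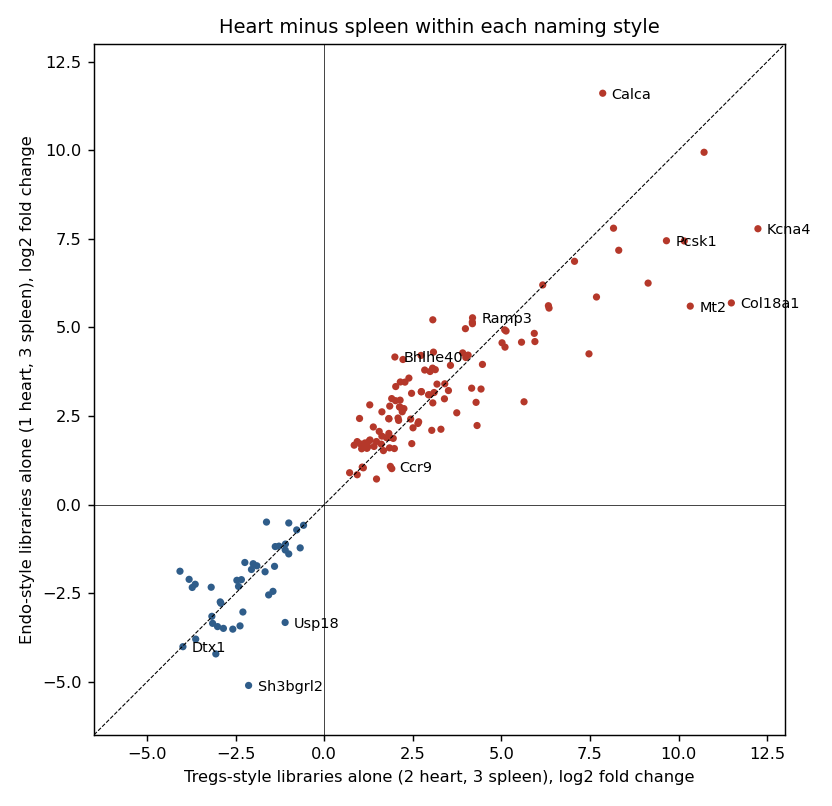
Log2 fold change of heart minus spleen in the Endo-style libraries alone (vertical axis, 1 heart and 3 spleen) against that in the Tregs-style libraries alone (horizontal axis, 2 heart and 3 spleen) for the called genes named in the text, red where higher and blue where lower in heart. All points lie in the upper right or lower left part, and Col18a1 and Mt2 lie farthest from the dashed line of equal values.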

How the data were processed

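RNA of sorted Tregs was sequenced in 18 libraries, of which 3 from infarcted heart and 6 from spleen carry the comparison. The authors deposited 2 tables of raw read counts per gene (46078 genes each), which held the same values for the spleen libraries, and the processing notes of the submitters name STAR, featureCounts, limma and GRCm38. For the strand setting of the counting and the tool versions nothing is stated in the labels. Total counts per library ran from 5970346 to 15756884, which bounds the counting precision of low genes, and 95% counting intervals and the floor of 3 counts cover counting error only.

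Here counts were filtered with filterByExpr, scaled by TMM and tested with the quasi-likelihood F test of edgeR 4.0.16 (R 4.3.3) over all genes, with group and naming style as terms and Benjamini-Hochberg adjustment at 0.05. Heart against the other injuries used all 18 libraries. The SE is the size of the log2 fold change divided by the square root of F. DESeq2 1.42.0, limma 3.58.1 (voom), other scalings, filters and left-out libraries were alternatives. Gene names and positions follow the Ensembl IDs, of which 45229 (98.2%) had an entry in the annotation used.

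Members, gene lists (40) and marker lists (14) were chosen with earlier results of these data known, so their counts are descriptions. The genes named are the 15 highest and 15 lowest by fold change against spleen and the 8 highest and 8 lowest against the other injuries, among called genes with libraries that do not overlap and a mean level of 3 or more in log2 CPM (clone-named, immunoglobulin, T cell receptor and sex-linked marker genes left out), up to 4 called members at each end of a list, and members that define a list's role. Some genes are not reported here.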

Additional observations from a re-analysis of the deposited data

Results flagged for a closer look

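A single spleen library stood apart from the other 5 for 14 of the 169 genes named here (gap to the nearest library over the range above 0.625, Dixon's critical value for 6 samples), and chance alone gives about 1 in 20, a share that does not hold for genes with only a few reads in spleen. Heart, with 3 libraries, was not tested for this.

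Spleen replicate 1 was the highest for Il1rl1 at 82.1 CPM (next 51.7), for Itgae at 84.3 CPM (next 56.2) and for AA467197 at 0.497 CPM (next 0.173). Spleen replicate 2 was the highest for Cd9 at 54.4 CPM (next 34.9) and for Kcna4 at 0.347 CPM (next 0.127). Spleen replicate 3 was the highest for Ctla2a at 18.8 CPM (next 10.6) and for Mt2 at 0.759 CPM (next 0.173). Spleen replicate 4 was the highest for Calca at 0.134 CPM, where the other 5 were at 0 and the gap fills the range by construction, and the lowest for Tnfrsf9 at 85.8 CPM (next 124). Spleen replicate 5 was the highest for Havcr2 at 5.04 CPM (next 2.88), for Irf4 at 121 CPM (next 81.9) and for Jag1 at 4.46 CPM (next 2.60), and the lowest for Lta at 14.5 CPM (next 19.9). Spleen replicate 6 was the lowest for Il1rap at 13.7 CPM (next 23.1).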

How the results depend on the processing

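Of 203 named values with a test (169 genes against spleen, 34 against the other injuries), 178 passed FDR 0.05; 151 of these kept the call in every alternative run, 27 lost it in at least 1 and 13 without 1 library, and none turned its direction. Another 6 passed only in some alternatives. The 3043 calls against spleen ranged from 2241 to 2894 with 1 library left out, the 1772 higher calls from 1301 to 1711 and the 1271 lower calls from 847 to 1183. The Endo-style libraries alone gave 1599 calls, 1114 higher and 485 lower, and the Tregs-style libraries alone 1170 higher calls, with fewer samples in each. The 300 calls against the other injuries (228 higher, 72 lower) ranged from 133 to 367 with 1 heart library left out (108 to 279 higher, 25 to 88 lower). They numbered 641 with DESeq2 (431 higher, 210 lower) and 788 without a filter (592 higher, 196 lower), and the cause was not tested. A replicate block in place of the naming style gave 2582 calls against spleen (1545 higher, 1037 lower) and 131 against the other injuries (98 higher, 33 lower), and 7 named calls were lost, while 21 of the 22 mitosis genes were higher with it in place of 11. Heart and spleen libraries share only a number. Spleen libraries whose number no heart library has take a block term of their own and add nothing to that contrast with spleen. The Tregs-style heart libraries are then set against Endo-style spleen libraries. The counts against spleen with this block are thus mixed with naming style and cannot check the calls. Same-numbered pairs correlated at 0.028, -0.025 and -0.067, and no heart library correlated best with the spleen library of its number. Genes near 0 in spleen have fold changes that rest on a few reads, and the Endo-style spleen libraries held at most 7230842 counts.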

Other observations

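Several of the chemokine receptor genes that were higher in heart libraries lie side by side on chromosome 9 (GRCm38). Between 123678439 and 124113557, 7 genes were higher in heart than in spleen: Ccr9, Lztfl1, Cxcr6, Xcr1, Ccr1, Ccr3 and Ccr2. Xcr1 (3.35 ± 0.85) is also in the list of dendritic cell markers, whose part was not tested, and its call ended with the Endo-style libraries alone (2.59, adjusted p = 0.0995), with the Tregs-style libraries alone (3.74, adjusted p = 0.0534) and without heart replicate 3 (2.71, adjusted p = 0.0789). The call of Ccr9 ended with the Endo-style libraries alone (1.08, adjusted p = 0.0694). In a window that starts on their proximal side and ends with Ccr2, 11 genes were tested and none fell in edgeR. Fyco1, which spans Cxcr6 on the other strand, averaged 79.9 CPM in heart and 72.7 CPM in spleen (log2 fold change 0.07 ± 0.19) and did not pass, and neither did Limd1 (-0.07 ± 0.14) and Sacm1l (0.31 ± 0.17) on the proximal side. Lztfl1, inside the span of Ccr9 on the other strand, averaged 99.1 CPM in heart and 25.2 CPM in spleen (1.91 ± 0.18), and Ccr9 averaged 73.9 CPM in heart and 20.7 CPM in spleen (1.58 ± 0.25). Both were also higher in heart than in the other injuries, the only 2 of the 11 to be so. Exons of Ccr9 and Lztfl1 do not overlap each other, nor do those of Fyco1 and Cxcr6. Ccr9 exons share bases with AC165425.1 (0 reads), Gm17200 (6 reads) and Slc6a20a (26 reads), and Lztfl1 exons with Gm17200. Without the strand setting of the counting, reads of exon bases shared on opposite strands cannot be told apart.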
